A study of Mus musculus with 12 samples.

Results

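The 10 immediate early genes Fos, Fosb, Junb, Egr1, Egr2, Nr4a1, Npas4, Arc, Dusp1 and Ier2 were followed across brain and liver of mice with and without Vaultrc5, which encodes a vault RNA, a short untranslated RNA of the vault particle. The genes were taken by symbol, and all 10 were found among the 55450 genes of the deposited count table. Male mice aged 7 to 9 weeks were sequenced as ribosome-depleted total RNA in 4 groups with 3 libraries each: brain Vaultrc5+/+, brain Vaultrc5-/-, liver Vaultrc5+/+ and liver Vaultrc5-/-. The control samples are titled flx and carry a wild-type genotype label, and are called wild type here. No treatment or stimulus is given for any group, the labels do not name a promoter, Cre or strain, and nothing in them says which part of the brain was taken or whether brain and liver came from the same animals. The 3 libraries of a group are not stated to come from separate animals, so p-values measure the spread between these libraries.

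Immediate early genes are switched on within minutes of a stimulus, without new protein synthesis, by transcription factors that are already present in the cell. Calcium entry and growth factor signals reach them through the ERK and calmodulin kinase pathways, which act on CREB at cyclic AMP response elements (CREs) and on serum response factor (SRF) at CArG boxes. In neurons their RNA is widely used as a mark of recent firing, and in liver they respond to feeding hormones, stress and injury. Most of their transcripts are short-lived, so a level records the recent past of the tissue, including the time up to its collection.

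Library totals were 14844971 to 18567381 expected counts in brain and 23247449 to 27155480 in liver, so that 3 counts correspond to 0.123 to 0.148 CPM (counts relative to the TMM-scaled library total) in brain and 0.149 to 0.169 CPM in liver. The targeted gene was counted as labelled: Vaultrc5 received 4, 1 and 4 counts in wild-type brain, 33, 39 and 48 in wild-type liver and 0 in all 6 knockout libraries. The tissues carried their own markers: the neuronal gene Snap25 was at 1381 to 1651 CPM in brain and at most 0.157 CPM in liver, and the hepatocyte gene Alb was at 40237 CPM or more in liver and at most 0.222 CPM in brain. The 6 brain libraries were not alike in regional markers, and these values are given beside the results they touch.

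All 10 genes are protein coding, and the positions of 9 of them follow here on GRCm38 from the GENCODE M21 annotation. Fos lies at chr12:85473890-85477273 on the plus strand, Fosb at chr7:19302696-19310051 on the minus strand and Junb at chr8:84974484-84978718 on the minus strand. Egr2 lies at chr10:67535475-67542188 (plus), Nr4a1 at chr15:101254269-101274795 (plus), Npas4 at chr19:4984355-4990316 (minus) and Arc at chr15:74669083-74672570 (minus). Dusp1 lies at chr17:26505590-26562128 (minus) and Ier2 at chr8:84661331-84662852 (minus). Exons of Junb share 173 bases with Prdx2 on the other strand and those of Dusp1 share 11 bases with Ergic1 on the other strand. The use of strand in counting is not given in the sources used here, so reads in those stretches may belong to either gene.

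RefSeq start site windows on GRCm38.p6, from 250 bases before to 50 bases after each start, were matched for 7 of the 10 genes (11 windows, 5 of them for Egr2). The genes named without a window are Egr1, Arc and Ier2. Sequence before the start is shown for 4 genes, as examples of the motifs that CREB and SRF are known to bind, and Nr4a1, with 4 short CREs in its window, is not shown. Each runs 5′ to 3′ toward the start site, and capitals mark a CRE (TGACGTCA), a short CRE (TGACG, or CGTCA where it lies on the other strand) or a CArG box. The Fos sequence is chr12:85473640-85473889 (plus), that of Egr2 chr10:67537619-67537868 (plus), that of Dusp1 chr17:26508473-26508722 (minus) and that of Npas4 chr19:4989972-4990221 (minus).
Fos: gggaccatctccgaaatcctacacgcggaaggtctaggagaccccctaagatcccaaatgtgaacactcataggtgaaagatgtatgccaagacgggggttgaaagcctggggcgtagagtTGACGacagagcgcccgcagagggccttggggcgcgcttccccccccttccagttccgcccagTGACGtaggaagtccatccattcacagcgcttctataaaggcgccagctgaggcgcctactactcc
Egr2: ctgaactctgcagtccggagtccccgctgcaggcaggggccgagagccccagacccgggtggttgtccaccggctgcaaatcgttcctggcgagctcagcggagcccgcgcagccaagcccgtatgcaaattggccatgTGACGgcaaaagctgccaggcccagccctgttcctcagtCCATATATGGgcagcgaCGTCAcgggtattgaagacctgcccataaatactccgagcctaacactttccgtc
Dusp1: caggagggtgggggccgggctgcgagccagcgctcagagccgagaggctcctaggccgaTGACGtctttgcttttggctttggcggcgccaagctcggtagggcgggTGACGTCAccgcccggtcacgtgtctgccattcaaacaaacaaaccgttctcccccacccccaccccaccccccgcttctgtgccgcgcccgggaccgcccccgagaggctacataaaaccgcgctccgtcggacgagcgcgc
Npas4: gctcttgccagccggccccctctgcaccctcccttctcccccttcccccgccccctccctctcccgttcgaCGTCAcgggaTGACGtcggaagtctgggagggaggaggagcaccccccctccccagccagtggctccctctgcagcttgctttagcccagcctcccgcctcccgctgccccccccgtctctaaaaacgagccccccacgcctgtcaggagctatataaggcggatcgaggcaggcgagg

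The short CRE was found on either strand in all 7 genes with a window, where 23% of the 27025 genes of the whole RefSeq table held it. By window it was found in 9 of their 11, of which 3 are overlapping windows of Egr2, and in 20.8% of all 32851 windows. Dusp1 alone among the 7 held the full CRE, which contains the short CRE on both strands and was present in 1.79% of all windows. Egr2 alone held a CArG box, in 4 of its 5 windows, and 1.63% of all windows held one. The Egr motif GCGNGGGCG, which Egr1 and Egr2 are known to bind, was found for Fosb and Nr4a1 and in 5.55% of all windows. TATAAA was found on either strand for Fos and Junb and in 13.6% of all windows. These matches describe letters in the windows and not binding.

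In brain, the genes were all expressed, and the knockout libraries lay on both sides of the wild-type libraries for 8 of the 10, all but Npas4 and Ier2. By RPKM, a level that divides the CPM by transcript length in kilobases, the order in wild-type brain was Arc, Egr1, Nr4a1, Junb, Fos, Dusp1, Npas4, Ier2, Egr2 and Fosb. Arc was at 52.8 ± 20.4 RPKM (SD, n = 3) and Egr1 at 42.0 ± 15.4 RPKM, a difference smaller than that spread. Nr4a1 (22.2 ± 6.49 RPKM), Junb (18.1 ± 6.04 RPKM) and Fos (13.6 ± 2.53 RPKM) followed, then Dusp1 (10.2 ± 1.42 RPKM) and Npas4 (7.57 ± 2.80 RPKM). Ier2 (4.49 ± 0.689 RPKM), Egr2 (3.26 ± 1.61 RPKM) and Fosb (2.49 ± 0.771 RPKM) were the lowest. Each gene's wild-type libraries overlapped those of its neighbours in this order. In knockout brain Egr2 (4.41 ± 4.25 RPKM) and Ier2 (4.35 ± 0.739 RPKM) exchanged places and the other 8 genes kept their order.

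Fos, Fosb and Junb encode subunits of the transcription factor AP1, Fos family proteins pairing with Jun family proteins. Fos was at 26.5, 38.3 and 31.4 CPM in wild-type brain replicates 1 to 3 and at 14.3, 35.8 and 58.1 CPM in knockout replicates 1 to 3. Fosb was at 11.1, 20.6 and 14.9 CPM in the wild type and at 4.99, 17.3 and 33.4 CPM in the knockout. Junb was at 29.2, 56.6 and 39.1 CPM in the wild type and at 16.1, 58.9 and 80.6 CPM in the knockout. For all 3 genes the wild-type libraries lay inside the range of the knockout libraries, whose replicate 1 was the lowest and whose replicate 3 was the highest of the 6.

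Egr1 and Egr2 encode zinc finger transcription factors, and Nr4a1 encodes an orphan nuclear receptor that acts without a known hormone. Egr1 lies at chr18:34859823-34864984 (GRCm38, plus strand), on the chromosome of Vaultrc5 and 1936882 bases from it. Egr1 was at 116, 253 and 196 CPM in wild-type brain and at 105, 296 and 328 CPM in knockout brain. Egr2 was at 5.00, 15.6 and 12.6 CPM in the wild type and at 1.43, 13.4 and 30.2 CPM in the knockout, a 21.1-fold range within the knockout. Nr4a1 was at 53.1, 97.9 and 82.4 CPM in the wild type and at 31.7, 122 and 163 CPM in the knockout. The groups overlapped for each of these genes, with knockout replicate 1 again lowest and knockout replicate 3 highest.

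Npas4 encodes a transcription factor largely restricted to neurons and induced by calcium entry, and Arc encodes a postsynaptic protein that takes part in removing AMPA receptors from synapses. Npas4 was at 30.0, 43.5 and 20.4 CPM in wild-type brain and at 18.4, 41.7 and 37.0 CPM in knockout brain. Its highest library was wild-type replicate 2, and the groups covered nearly the same range. Arc was at 89.6, 204 and 190 CPM in the wild type and at 62.1, 260 and 297 CPM in the knockout, so that the knockout spanned the whole wild-type range.

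Dusp1 encodes a phosphatase that switches off MAP kinases, and Ier2 encodes a nuclear protein induced with the other genes. Dusp1 was at 33.8, 38.7 and 29.3 CPM in wild-type brain and at 26.7, 41.5 and 43.2 CPM in knockout brain. Ier2 was at 7.34, 7.54 and 5.64 CPM in the wild type and at 5.33, 7.40 and 7.13 CPM in the knockout. These genes had the narrowest ranges of the 10, and their groups overlapped.

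**Figure D1:**
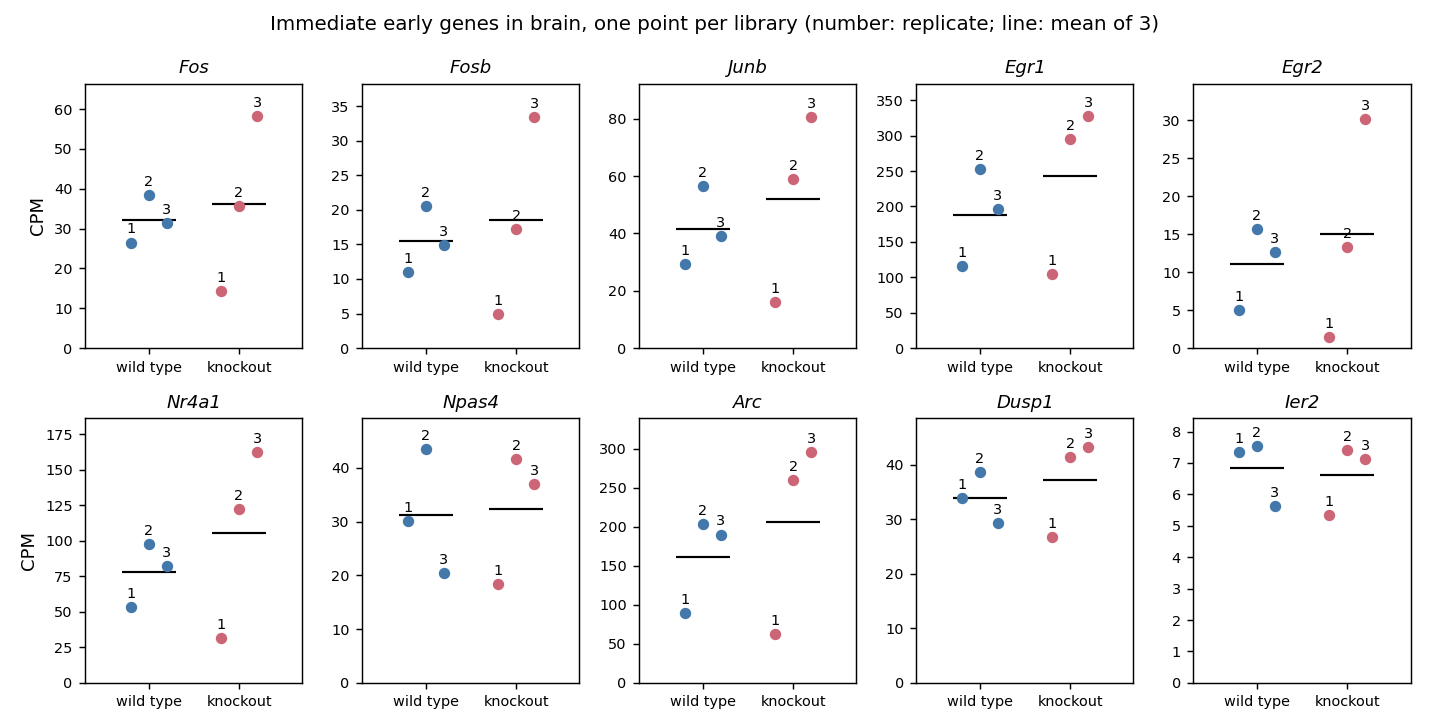
CPM of each of the 10 genes (vertical axes, starting at 0) in the 3 wild-type and 3 knockout brain libraries, with one point per library labelled by its replicate number and a line at the mean of 3. Knockout replicate 1 is the lowest point in every panel, and knockout replicate 3 is the highest in every panel other than Npas4 and Ier2.

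None of the 10 genes passed the test between knockout and wild-type brain. With edgeR's quasi-likelihood F-test, 0 of the 10 genes were called at a Benjamini-Hochberg adjusted p under 0.05, and of all 18075 genes tested 0 were called (0%). The smallest unadjusted p among the 10 was 0.452, for Nr4a1, so 0 of 10 were under an unadjusted 0.05, against 0.675% of all genes, and the DESeq2 Wald test also called 0 of 10. For none of the 10 did the groups fail to overlap, against 4.23% of all genes tested. The log2 fold change of knockout over wild type was 0.44 (SE 0.56) for Nr4a1, 0.44 (SE 0.92) for Egr2, 0.37 (SE 0.46) for Egr1 and 0.36 (SE 0.58) for Arc. It was 0.32 for Junb, 0.26 for Fosb, 0.17 for Fos, 0.13 for Dusp1, 0.05 for Npas4 and -0.05 for Ier2.

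The precision of these log2 fold changes differed between the genes. The 95% confidence interval was widest for Egr2, from -1.75 to 2.63, and narrowest for Ier2, from -0.50 to 0.41. For Arc it ran from -1.03 to 1.74 and for Fos from -0.92 to 1.27. Differences within those intervals in either direction are thus not excluded by these libraries. The intervals are not adjusted for the number of genes tested, so they do not give the size that would be called. The log2 fold change was above 0 for 9 of the 10 genes, with a median of 0.29, against a median of -0.01 over all genes tested. This sign rested on 1 library: without knockout replicate 3, 1 of the 10 log2 fold changes was above 0 and their median was -0.09. The size rested on others as well, with a median of 0.08 without wild-type replicate 1 and of 0.54 without wild-type replicate 2, all 10 being above 0 in both. Without knockout replicate 1, all 10 were above 0 with a median of 0.72, Junb and Nr4a1 had an unadjusted p under 0.05 (adjusted p of 1.00 in edgeR), as had 1.1% of all genes in that fit, and 0 were called.

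**Figure D2:**
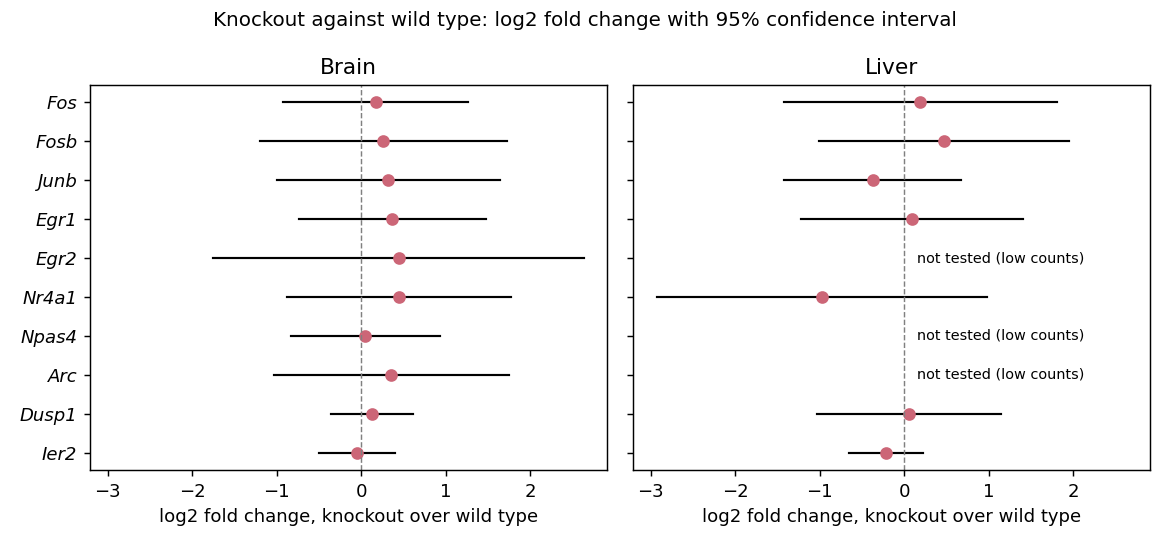
Log2 fold change of knockout over wild type (horizontal axis) for each gene in brain and in liver, with the point at the edgeR estimate and the bar at its 95% confidence interval. All 10 brain intervals and all 7 liver intervals include 0, and Egr2, Npas4 and Arc have no liver estimate because their counts were too low to be tested.

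The 10 genes moved together from one brain library to the next. Knockout replicate 1 was the lowest of the 6 brain libraries for 10 of the 10 genes, while it was the lowest for 14.2% of all genes tested. Knockout replicate 3 was the highest for 8 of the 10 and for 12.1% of all genes, and wild-type replicate 2 was the highest for the others, Npas4 and Ier2, and for 20.2% of all genes. The summed CPM of the 10 genes was 402, 776 and 622 in wild-type replicates 1 to 3 and 286, 894 and 1078 in knockout replicates 1 to 3. Both libraries numbered 1 were thus the lowest of their group.

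Across the 6 brain libraries, log2 CPM was positively correlated in all 45 pairs of the 10 genes, with a median Pearson r of 0.91 and a range of 0.56 to 1.00. The highest value was that of Fos with Fosb and the lowest that of Arc with Ier2. These correlations describe 6 libraries in 2 genotypes, and all genes share each library's composition. Without knockout replicate 1 the median over 5 libraries was 0.83 with 44 of 45 pairs positive, and without both libraries numbered 1 it was 0.81 over 4 libraries with 45 of 45 positive.

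The spread between libraries of a group was large for most of the genes in brain. It was measured as the SD of log2 CPM about the group means, pooled over both genotypes, and 7 of the 10 genes lay above 0.62, the 90th percentile of the 18075 genes tested, above which 10% of all genes lie by construction. The median SD of the 10 was 0.86 and that of all genes 0.23. Egr2 had the largest SD (1.70, percentile 99.0), followed by Fosb (1.04), Arc (1.01), Nr4a1 (0.96), Junb (0.94), Egr1 (0.77) and Fos (0.76). Npas4 was just below the limit (0.59, percentile 88.9), and Dusp1 (0.31, percentile 63.4) and Ier2 (0.24, percentile 51.8) were lower. Among the 1000 genes nearest in mean level, Npas4 was at percentile 96.9, Dusp1 at 82.4 and Ier2 at 53.9. This count also rested on 1 library: without knockout replicate 1 only Egr2, with an SD of 0.86, stayed above the percentile, which was then 0.64. Without replicate 1 of both genotypes Egr2 was again the only gene above it, with an SD of 0.62 against a limit of 0.59.

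**Figure D3:**
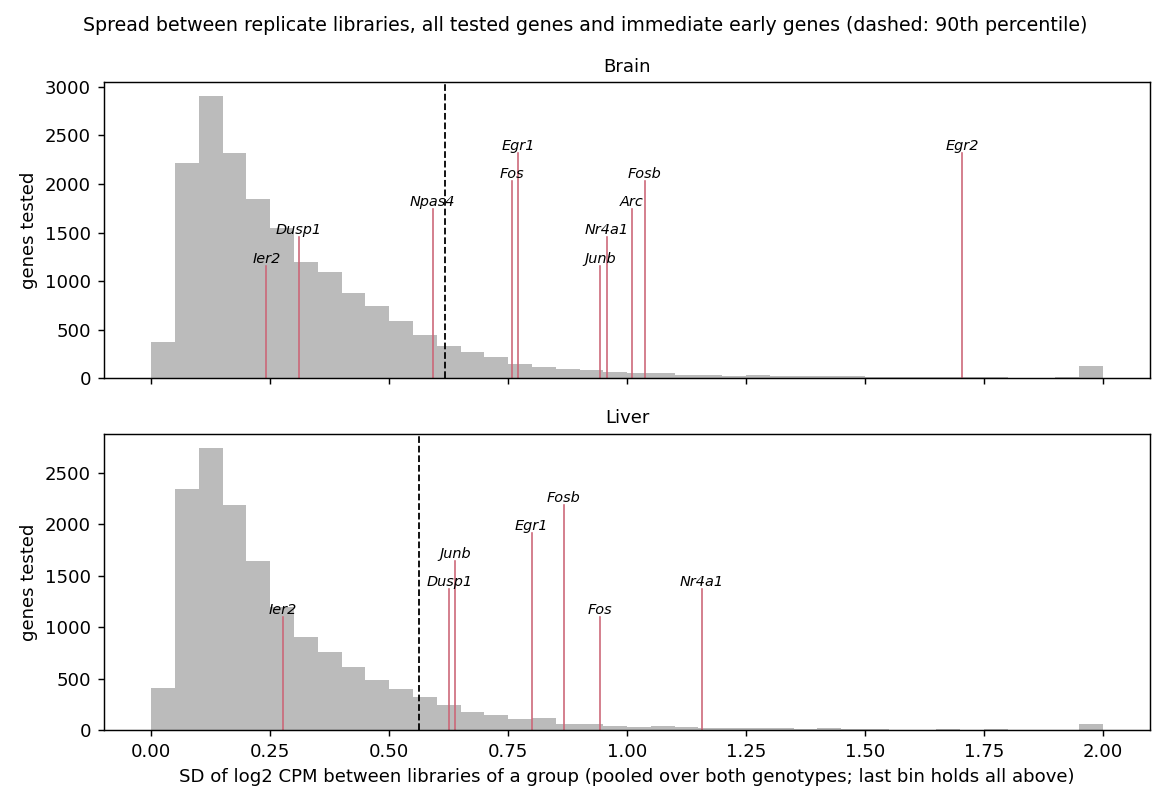
Histograms (grey) of the SD of log2 CPM between libraries of a group, for all genes tested in brain and in liver, with the number of genes on the vertical axis. Red lines of arbitrary height mark the immediate early genes and the dashed line the 90th percentile, at 0.62 in brain and 0.56 in liver; 7 of 10 genes in brain and 6 of 7 in liver lie to its right.

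Cerebellar markers also differed between the brain libraries. The 4 cerebellar markers (Cbln1, Gabra6, Pcp2 and Calb2) summed to 485, 7.75 and 134 CPM in wild-type replicates 1 to 3 and to 483, 8.86 and 190 CPM in knockout replicates 1 to 3, and none of them was at 0 in any brain library. The granule cell gene Gabra6 alone was at 160 CPM in replicate 1 of both genotypes, at 0.123 and 0.0441 CPM in wild-type and knockout replicate 2, and at 35.5 and 55.8 CPM in wild-type and knockout replicate 3. The 6 general neuronal markers summed to 3208, 4363 and 3431 CPM in the wild type and to 3517, 4118 and 3662 CPM in the knockout, lowest in replicate 1 of either genotype. Both libraries with the most cerebellar RNA had the least immediate early gene RNA of their group, whereas knockout replicate 3, the highest for 8 genes, had more cerebellar RNA than both libraries numbered 2. In bulk tissue, fewer cells of a type and less RNA per cell cannot be told apart, and the part of tissue composition in these levels was not tested. Without replicate 1 of both genotypes, an alternative chosen after these markers had been seen, 0 of the 10 genes were called between knockout and wild type. The log2 fold change was then above 0 for all 10, with a median of 0.49. It was 0.50 for Arc, 0.66 for Nr4a1 and 0.48 for Egr1, and these 3 had an unadjusted p under 0.05 but an adjusted p of 1.00 in edgeR, where 0.874% of all genes were under an unadjusted 0.05.

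**Figure D4:**
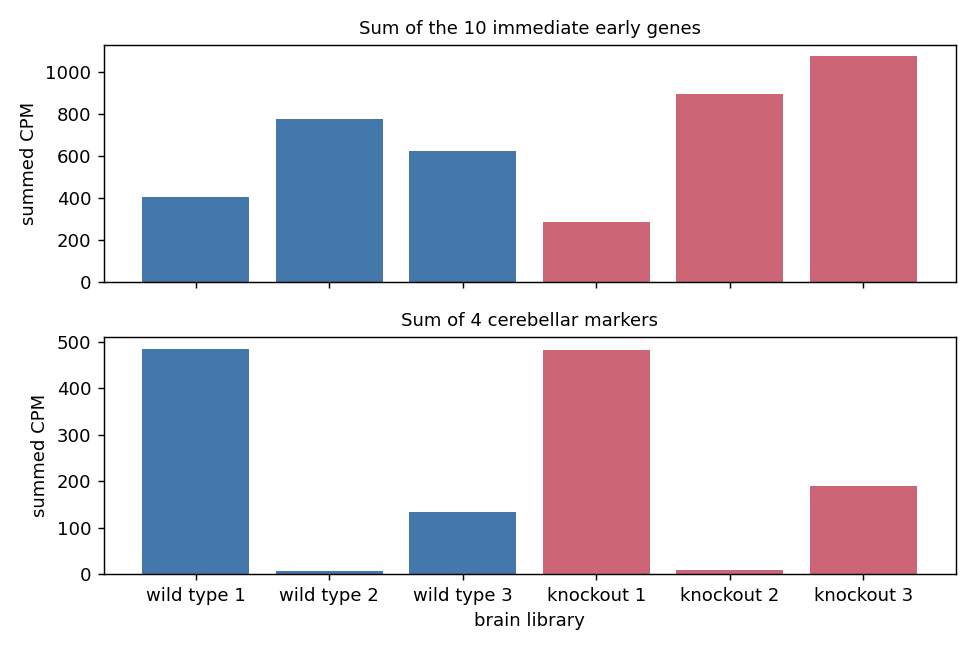
Summed CPM (vertical axes, starting at 0) in each of the 6 brain libraries for the 10 immediate early genes and for 4 cerebellar markers. The libraries numbered 1 have the tallest cerebellar bars, 485 and 483 CPM, and the lowest immediate early gene sum of their genotype, 402 and 286 CPM.

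Most other genes that respond to activity were positively correlated with the 10 across the brain libraries. A list of 62 further activity-regulated genes was compared with the mean pattern of the 10 (the mean of their standardized log2 CPM), over the 6 libraries and among genes with at least 1 CPM on average. Of the 58 list genes that could be compared, 52 had a positive Pearson r, against 49.6% of all 16666 genes, with a median r of 0.76 against -0.01. The r was below 0 for the other 6, Btg1 (-0.68), Pim1 (-0.64), Ppp1r15a (-0.63), Ier3 (-0.57), Dusp5 (-0.52) and Nfil3 (-0.31). For 11 of the 58 the r was above 0.9, as it was for 1.84% of all genes: Gadd45b, Dusp6, Ccn1, Nr4a3, Fosl2, Trib1, Csrnp1, Jun, Klf2, Egr4 and Ier5l. Egr4, a zinc finger relative of Egr1, was at 11.2, 21.4 and 17.9 CPM in wild-type and at 8.84, 21.4 and 37.6 CPM in knockout brain replicates 1 to 3, lowest and highest in the same libraries as Egr2. Those 16666 genes leave out the 10 but not the list. Among them the 5 with the most similar pattern, none of them on the list, were Carmn (r = 0.995), Celsr1 (0.993), Cc2d1a (0.988), Fgd2 (0.985) and Trip10 (0.984), each over 6 libraries. With any 1 library left out their r stayed between 0.954 and 0.999, which their choice by the highest r over the same libraries favours. The r values describe these libraries and carry no test.

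None of the further genes or of 24 upstream regulators (SRF, its partners, CREB, its coactivators and the kinases that act on them) passed the test between genotypes in brain. Of the further genes 59 were tested with 0 calls in edgeR, none was under an unadjusted 0.05, and DESeq2 called 0 genes in all. Their median log2 fold change was 0.17, with 50 of 59 above 0, against 48.3% of all genes. This sign also rested on knockout replicate 3, without which 26 of 60 were above 0 and the median was -0.03. Without wild-type replicate 1 the median was 0.04, with 39 of 60 above 0, and without knockout replicate 1 it was 0.38, with 55 of 61 above 0. The smallest unadjusted p values were those of Bdnf, a neurotrophin (log2 fold change 0.33, SE 0.23, adjusted p of 1.00 in edgeR), Nab2, a corepressor of Egr proteins (0.25), and Nptx2, a secreted synaptic protein (0.38). Bdnf was at 11.4, 17.8 and 14.0 CPM in the wild type and at 14.2, 17.8 and 22.3 CPM in the knockout, with overlapping groups. All 24 upstream regulators were tested with 0 called, and their median log2 fold change was 0.07. The smallest p values among them were those of the ERK gene Mapk3 (-0.13, SE 0.11), of Mef2d (0.15, SE 0.14) and of the CREB coactivator gene Crtc2 (0.22, SE 0.21).

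In liver, the genes fell into a detected and a nearly absent set. Dusp1, Junb, Egr1, Ier2 and Nr4a1 were expressed, Fos and Fosb were low, and Arc, Egr2 and Npas4 were at or near the level of 3 counts. By RPKM the wild-type order began with Junb (17.8 ± 8.23 RPKM, SD, n = 3), Dusp1 (15.9 ± 6.85 RPKM) and Ier2 (13.0 ± 2.60 RPKM), which overlapped, and went on with Egr1 (4.89 ± 1.49 RPKM) and Nr4a1 (4.28 ± 1.39 RPKM), which overlapped each other and lay below all Ier2 libraries. Fos was at 0.952 ± 0.757 RPKM and Fosb at 0.137 ± 0.116 RPKM. In knockout liver Dusp1 (16.6 ± 7.31 RPKM) stood before Junb (13.7 ± 3.53 RPKM), with overlapping libraries, and the other 5 genes kept their order.

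Fos was at 4.28, 1.44 and 0.996 CPM in wild-type liver replicates 1 to 3 and at 4.52, 1.46 and 1.63 CPM in knockout liver replicates 1 to 3. Fosb was at 1.69, 0.399 and 0.472 CPM in the wild type and at 1.53, 0.563 and 1.40 CPM in the knockout. Junb was at 52.3, 51.3 and 19.0 CPM in the wild type and at 39.6, 31.4 and 23.3 CPM in the knockout. Replicate 1 of either genotype was the highest of its group for these AP1 genes, and the groups overlapped for each of them.

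Dusp1 was at 78.2, 45.3 and 34.7 CPM in wild-type liver and at 79.6, 31.3 and 53.7 CPM in knockout liver. Egr1 was at 18.1, 29.6 and 18.0 CPM in the wild type and at 36.2, 8.56 and 25.3 CPM in the knockout. Ier2 was at 23.9, 19.5 and 16.0 CPM in the wild type and at 21.1, 15.2 and 14.5 CPM in the knockout. Dusp1 and Ier2 were also highest in replicate 1 of either genotype, and Egr1 was lowest in knockout replicate 2, with overlapping groups for all 3.

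Nr4a1 was at 9.40, 18.3 and 17.3 CPM in wild-type liver and at 5.26, 1.75 and 15.7 CPM in knockout liver. The groups overlapped, since knockout replicate 3 lay above wild-type replicate 1. Markers of Kupffer cells, the liver's macrophages, also set the library with the lowest Nr4a1 apart: Clec4f, Vsig4, Cd5l and Adgre1 summed to 136 to 182 CPM in the wild type and to 188, 341 and 148 CPM in knockout replicates 1 to 3, and their part in the Nr4a1 level was not tested. Other lists set knockout replicate 2 apart as well: the microglial list summed to 107 CPM there against 47.3 to 67.2 CPM in the other liver libraries, neutrophil markers to 3.55 CPM against 0.367 to 1.35 CPM, and hepatocyte markers to 58133 CPM against 72127 to 93944 CPM. On the first principal component of the liver libraries it was at 42.3, and the others were at -25.5 to 11.3. Arc had 5 counts over the 3 wild-type liver libraries and 7 over the knockout libraries, Egr2 had 9 and 17, and Npas4 had 0 and 3. No fold change between genotypes is given for these 3 genes in liver.

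**Figure D5:**
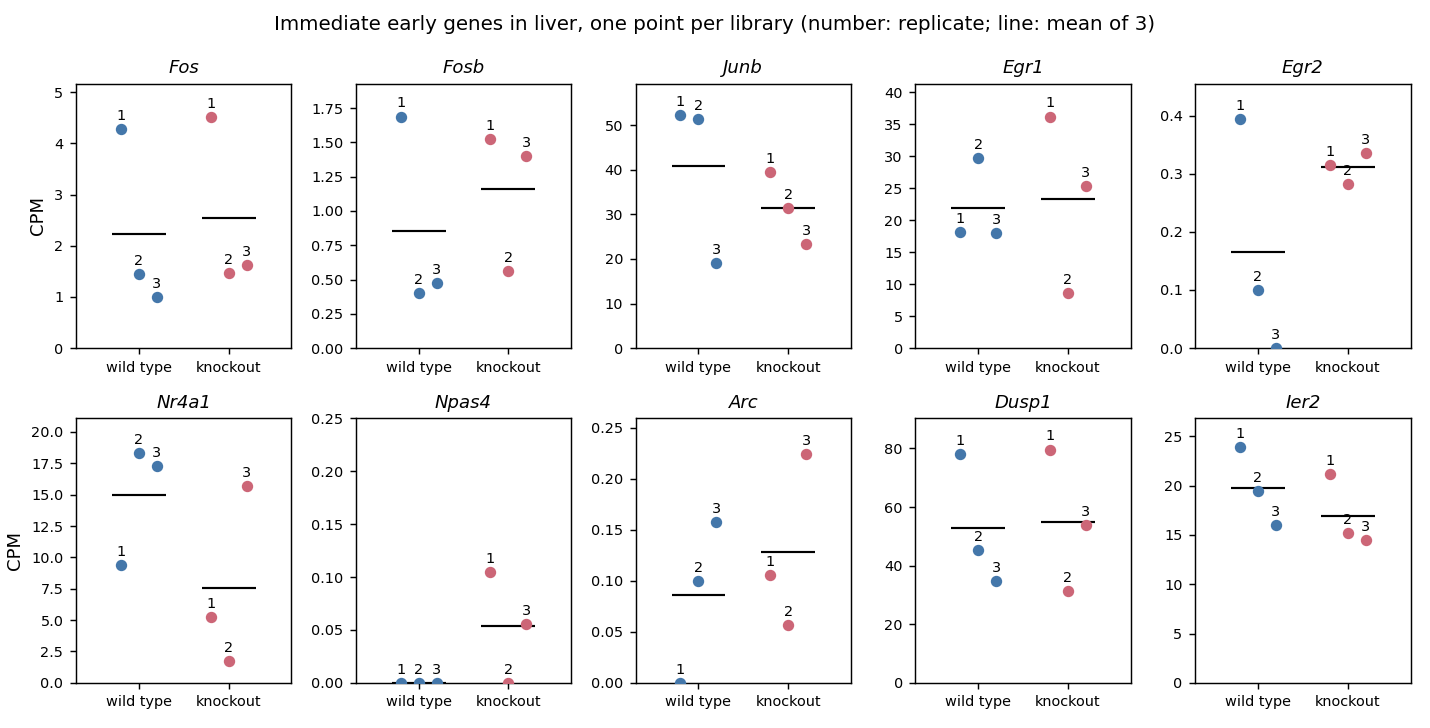
CPM of each of the 10 genes (vertical axes, starting at 0) in the 3 wild-type and 3 knockout liver libraries, with one point per library labelled by its replicate number and a line at the mean of 3. The panels differ in scale: Dusp1 reaches 79.6 CPM, whereas Npas4 and Arc stay under 0.225 CPM in every library.

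None of the genes passed the test between knockout and wild-type liver. Of the 7 genes tested 0 were called with edgeR, as were 0 of all 15329 genes (0%), 0 of 7 had an unadjusted p under 0.05, against 3.5% of all genes, and DESeq2 called 0 of the 7. Vaultrc5 itself, absent from the knockout libraries, had the smallest unadjusted p of all genes (3.14e-05 in edgeR's quasi-likelihood F-test). It was still not called (adjusted p of 0.333 in edgeR), so a gene without a call may nevertheless differ. None of the 7 had groups that did not overlap, against 9.62% of all genes. Within the pairs of same-numbered liver libraries, Nr4a1 and Ier2 were lower in the knockout in 3 of 3 pairs, as were 14.8% of all genes, and Fos was higher in 3 of 3, as were 14% of all genes. With the replicate number as a block, the log2 fold change was -1.25 for Nr4a1 and -0.22 for Ier2, neither called (adjusted p of 0.852 and 0.803 in edgeR). The smallest unadjusted p of the 7 in that fit was 0.068 in edgeR, for Ier2. Without the block Nr4a1 had the smallest p of the 7. Its log2 fold change was -0.97 (SE 0.77, 95% confidence interval -2.93 to 0.98; adjusted p of 0.992 from edgeR). Its value ran from -2.10 without knockout replicate 3 to -0.51 without knockout replicate 2. It had an unadjusted p under 0.05 without knockout replicate 3, as had 7.23% of all genes, and remained uncalled (adjusted p of 0.676 in edgeR). The log2 fold change was 0.47 for Fosb, 0.19 for Fos, 0.09 for Egr1, 0.06 for Dusp1, -0.22 for Ier2 and -0.38 for Junb. That of Fosb ran from 0.12 without wild-type replicate 2 to 1.42 without wild-type replicate 1. Its unadjusted p was under 0.05 in the latter fit, as for 3.11% of all genes, and that of Junb (-0.72) without wild-type replicate 3, as for 2.97%, with adjusted p of 0.996 and 1.00 in edgeR. The median of the 7 was 0.06 against 0.01 over all genes. With single libraries left out that median ran from -0.39 without knockout replicate 1, with 1 of 7 above 0, to 0.33 without knockout replicate 2, with 4 of 7 above 0.

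The difference between the genotype effects in liver and in brain was fitted as an interaction over all 12 libraries. Of the 10 genes 0 were called with edgeR, against 0 of 20141 genes (0%), 0 had an unadjusted p under 0.05, against 2.43% of all genes, and DESeq2 called 0 of 10. Arc, Egr2 and Npas4 passed the filter on low counts through brain. With few or no liver counts they could not inform this difference. The smallest p was that of Nr4a1, whose log2 fold change in liver minus that in brain was -1.44 (SE 0.97, adjusted p of 1.00 in edgeR). Without liver knockout replicate 3 it was -2.55, with an unadjusted p under 0.05, as for 3.99% of all genes, and an adjusted p of 1.00 in edgeR. For Junb the difference was -0.71 (SE 0.74) and for Fos it was 0.02 (SE 0.84).

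The spread between liver libraries was also large. Of the 7 genes tested in liver, 6 had an SD of log2 CPM above 0.56, the 90th percentile of all 15329 genes (10% above it by construction), and the median SD was 0.80 against 0.20 for all genes. Nr4a1 had the largest (1.16), followed by Fos (0.94), Fosb (0.87), Egr1 (0.80), Junb (0.64) and Dusp1 (0.63), and Ier2 was below the percentile at 0.28. With the replicate number fitted as a block, 3 of the 7 genes were above the percentile, namely Nr4a1 (1.17), Egr1 (1.03) and Fosb (0.56). Of the pairs of liver genes, 18 of 21 were positively correlated over the 6 libraries, with a median r of 0.41 and a range from -0.26, for Fos with Nr4a1, to 0.91, for Fos with Dusp1. Whether the correlations differ between the tissues was not tested. Wild-type replicate 1 was the highest of the 6 libraries for 3 genes, against 16.2% of all genes, knockout replicate 1 for 3 (19.2% of all genes) and wild-type replicate 2 for Nr4a1 (12.1%). Knockout replicate 2 was the lowest for 3 genes (24.5% of all genes), wild-type replicate 3 for 2 (17.3%), and wild-type replicate 2 and knockout replicate 3 for 1 each (10.7% and 20.9%).

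Of the further activity-regulated genes, 28 of 47 had a positive r with the mean pattern of the 7 genes in liver, against 50.2% of all genes, with a median of 0.17, and 0 were above 0.9, against 1.18% of all 13315 genes. The most similar genes in liver were Gm5165 (r = 0.994), Gm37589 (0.991), Hal (0.988), Gm12718 (0.987) and Gpr157 (0.985), each over 6 libraries. With any 1 library left out these r stayed between 0.950 and 0.999, which the choice by the highest r over the same libraries favours.

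Of the 53 further genes tested in liver, 0 were called between the genotypes by edgeR, and 6 had an unadjusted p under 0.05, where 3.5% of all genes had one. Gadd45g, a stress and growth arrest gene, was at 16.8, 10.3 and 9.64 CPM in wild-type and at 51.0, 20.2 and 30.9 CPM in knockout liver, so that the groups did not overlap, as for 9.62% of all genes. Its log2 fold change was 1.48 (SE 0.39), with an adjusted p of 0.992 in edgeR and of 0.019 in the DESeq2 Wald test, which called it. Plk3, a Polo-like kinase gene, had the smallest p and was at 54.0, 61.9 and 59.3 CPM in the wild type and at 83.2, 80.2 and 71.3 CPM in the knockout. Its log2 fold change was 0.43 (SE 0.09), not called either (adjusted p of 0.992 in edgeR). Jund, an AP1 subunit gene of more constant expression than Junb, was at 65.0, 62.6 and 64.6 CPM in the wild type and at 55.7, 50.9 and 54.4 CPM in the knockout, a log2 fold change of -0.25 (SE 0.07) with the same adjusted p in edgeR. The median over the 53 genes was 0.01, as over all genes. Of the 23 upstream regulators tested in liver 0 were called, with a median of 0.04, and the smallest p values were those of Crtc2 (0.22, SE 0.11), Mef2a (0.13, SE 0.08) and Elk3 (0.17, SE 0.13).

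In the interaction 0 of 61 further genes and 0 of 24 upstream regulators were called, and 2 and 0 of them had an unadjusted p under 0.05, against 2.43% of all genes. The smallest p values of the further genes were those of Gadd45g, with a difference of 1.38 (SE 0.51) between the log2 fold changes in liver and brain, Jund (-0.30, SE 0.12) and Myc (1.50, SE 0.73). Among the upstream regulators they were those of Elk3 (0.19, SE 0.20), Camk4 and Mrtfa (0.17, SE 0.21), and Camk4 is given no value here because it had few or no liver counts.

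Between brain and liver most of the genes passed the test. In the wild type 8 of the 10 genes were called between the tissues, 7 higher and 1 lower in brain, where 78.6% of all 18850 genes were called, 43.9% higher and 34.7% lower in brain. In the knockout the numbers were again 8 of 10, 7 higher and 1 lower, against 78.7% of 18785 genes, 43.5% higher and 35.2% lower. With library totals as the scaling the split of all genes was 61.7% higher and 21.2% lower in the wild type and 62.1% higher and 20.6% lower in the knockout. The share called is near that of all genes. Arc, Npas4 and Egr2 passed the filter on low counts through brain and had to be higher there. Of the other 7 genes 4 were higher, 1 was lower and 2 were not called in either genotype, and the middle log2 fold change of the 7 was that of Nr4a1 in the wild type (2.38) and that of Egr1 in the knockout (3.37), with a median of 0.21 over all genes in either genotype. No test of the direction was made. The 2 comparisons use different libraries.

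Arc, Npas4 and Egr2 were nearly absent from liver, and their counts are given in place of fitted fold changes. Arc had 11461 counts in wild-type brain and 5 in wild-type liver, a ratio of 1853 after scaling (95% counting interval 794 to 5708), and in the knockout the ratio was 1646 (799 to 4095). Npas4 had 2216 counts in wild-type brain and 0 in wild-type liver, which makes it at least 197-fold higher in brain when each liver library is set at 3 counts. In the knockout its ratio was 598 (204 to 2902), resting on 3 liver counts. Egr2 was 71.0 times as high in brain as in liver in the wild type (37.2 to 156) and 49.4 times in the knockout (30.7 to 85.1). Its wild-type liver counts were 7, 2 and 0 in replicates 1 to 3, so that ratio rests mainly on replicate 1. These intervals cover counting error only, and the labels name no molecular identifiers.

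Of the genes tested for a genotype difference in both tissues, Fosb was higher in brain by a log2 fold change of 4.21 (SE 0.52) in the wild type and 3.98 (SE 0.74) in the knockout. Fos was higher by 3.86 (SE 0.48) and 3.82 (SE 0.64), and Egr1 by 3.11 (SE 0.33) and 3.37 (SE 0.62). Nr4a1 was higher in brain by 2.38 (SE 0.31) in the wild type and by 3.80 (SE 0.89) in the knockout, and the interaction above is the test of that difference. Ier2 was the gene called lower in brain, with -1.53 (SE 0.20) and -1.36 (SE 0.21). The adjusted p values of these 5 genes in edgeR ran from 6.93e-05 for Egr1 to 0.000206 for Nr4a1 in the wild type and from 0.00054 for Ier2 to 0.00596 for Nr4a1 in the knockout, and brain and liver did not overlap within a genotype for any of them, as for 82.4% of all genes. Junb (0.03, SE 0.40 in the wild type and 0.72, SE 0.52 in the knockout) and Dusp1 (-0.63, SE 0.29 and -0.57, SE 0.34) were not called.

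These tissue values depend on how the tissues are scaled to each other. With library totals as the scaling instead of TMM, the median over all genes went from 0.21 to 1.05 in the wild type and to 1.08 in the knockout. Dusp1 then changed sign, to 0.21 in the wild type and 0.30 in the knockout, neither called. Ier2 in the knockout was at -0.48 and no longer called, and Junb in the knockout was at 1.60 and called. The other called genes kept their direction and their call under this scaling.

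Of the further activity-regulated genes, 60 were tested between tissues and 48 were called in the wild type, 24 in each direction, where 78.6% of all genes were called. In the knockout 45 of 60 were called, 24 higher and 21 lower in brain, where 78.7% of all genes were called. The genes named toward brain are Vgf, Pcsk1 and Scg2, which encode a granin family precursor, a prohormone convertase and a secretogranin, and Nptx2 and Egr4. With few or no liver counts they passed the filter through brain, and no fold or order is given for them. Vgf was at 63.5 to 138 CPM, Pcsk1 at 26.6 to 55.5 CPM, Nptx2 at 14.6 to 33.3 CPM and Egr4 at 8.84 to 37.6 CPM over the 6 brain libraries, and all 4 had 0 counts in all 6 liver libraries. Scg2 was at 74.2 to 127 CPM in brain and at most 0.105 CPM in liver. The largest differences toward liver were those of Errfi1, an inhibitor of EGF receptor signalling (log2 fold change of brain over liver -6.12, SE 0.20 in the wild type), Zfp36, which promotes decay of short-lived mRNAs (-5.56, SE 0.36), Cebpb (-5.08, SE 0.31), Maff (-3.79, SE 0.52) and Zfp36l1 (-3.58, SE 0.34). In the knockout Socs3 (-3.61, SE 0.61) took the place of Maff.

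Of the 24 upstream regulators 20 were called in either genotype, 15 higher and 5 lower in brain, against the same 78.6% and 78.7% of all genes. Camk4, a calmodulin kinase that acts on CREB, was at 88.0 to 173 CPM in brain and at most 0.225 CPM in liver. Mef2c was higher in brain by 5.92 (SE 0.36) in the wild type on the log2 scale, Rps6ka2 by 3.68 (SE 0.21), the CREB coactivator gene Crtc1 by 2.86 (SE 0.13) and Rps6ka5 by 2.69 (SE 0.27). The SRF partner gene Elk4 was lower in brain, with -2.19 (SE 0.11), as were the Egr corepressor gene Nab1 (-1.79, SE 0.16), Atf1 (-1.75, SE 0.16), Elk3 (-1.44, SE 0.15) and Crtc2 (-1.10, SE 0.17). Crtc2 was not called with library totals as the scaling (-0.26 in the wild type and -0.22 in the knockout). The same 10 regulators had the largest differences in the knockout.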

How the data were processed

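Total RNA of brain and liver was sequenced in 12 libraries, 3 per tissue and genotype, grouped by the title and genotype labels. The authors' deposited table holds expected counts for every gene, unnormalized and 1 column per library. Per the submitters' processing notes, the tools included cutadapt and STAR and the build was mm10, with versions not given in the sources used here. Per the labels' protocols, libraries were stranded, ribosome depleted and single-end. Between 5.06% and 5.71% of a library's values were not whole, so reads shared between genes were probably split. The 10 genes had whole counts in every library, except Ier2 in 1.

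The expected counts were rounded. Groups were compared in R 4.3.3 with edgeR 4.0.16 (quasi-likelihood F-test) after TMM, filterByExpr (minimum count 10, total 15), robust estimation and Benjamini-Hochberg adjustment over all genes tested at 0.05, each on its own 6 libraries and the interaction on all 12. SE was the absolute log2 fold change over the square root of F. CPM use TMM over all 12 libraries, RPKM add GENCODE M21 exon lengths, and the spread (limma 3.58.1) and correlations use log2 CPM with a prior count of 2. The steps were tested on simulated data.

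The genes, the lists of 62 further activity-regulated genes and 24 upstream regulators, and the marker lists were chosen with earlier results of these data known; 1 marker list is not reported here. The text names all 10 genes and, of the 2 lists, called genes or the 3 with the smallest p, and up to 5 per direction between tissues. The pattern search names the 5 nearest genes.

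Alternatives were DESeq2 size factors, library totals, the Wald test of DESeq2 1.42.0, a filter of 1 count only, robust estimation off, all 12 libraries in 1 fit, a prior count of 0.5, the replicate number as a block and each library left out. The number comes from the titles. In liver, deviations of same-numbered wild-type and knockout libraries correlated at 0.27, 0.28 and 0.35. Those of liver libraries with different numbers correlated at -0.25 to -0.03. The numbers may thus mark pairs there, which 3 libraries a group cannot establish. The main tests were not paired, and the replicate block was the alternative that used the numbers. In brain and across tissues the correlations were not above 0.1 for all pairs, and the numbers were not taken as pairs.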

Additional observations from a re-analysis of the deposited data

How the results depend on the processing

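The count of immediate early genes called between genotypes was 0 in brain, in liver and in the interaction under every alternative, including each left-out library (0 to 0), and 8 in both tissue comparisons under all of them except some left-out libraries (8 to 9). The spread counts moved: in brain from 7 to 1 without knockout replicate 1 and to 1 without replicate 1 of both genotypes (range over left-out libraries 1 to 8), and in liver from 6 to 3 with the replicate block (left-out libraries 4 to 6). With the replicate block in brain, Arc and Egr1 fell below the percentile and Npas4 rose above it. The cause was not tested. Same-numbered brain libraries correlated at 0.64, 0.65 and -0.01, so the third pair did not correlate and the numbers were not taken as pairs there. With the replicate block, Fos (-0.011) and Fosb (-0.00699) in brain and Egr1 (-0.0234) in liver changed sign and no immediate early gene's call changed. Of all genes, the block called 0 in brain, 2 in liver and 2 in the interaction, where the main fits called none. In brain the median of the 10 was 0.069 with the block, with 7 of 10 above 0. With library totals as the scaling, Dusp1 changed sign between tissues (0.21 in the wild type and 0.30 in the knockout).

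Left-out libraries reversed some log2 fold changes that were not called. In brain the ranges were -0.0135 to 0.79 for Arc, -0.0039 to 0.32 for Dusp1, -0.59 to 0.98 for Egr2, -0.37 to 0.56 for Fos, -0.49 to 0.71 for Fosb, -0.16 to 0.14 for Ier2 (0.091 without knockout replicate 1), -0.16 to 0.75 for Junb, -0.18 to 0.36 for Npas4 and -0.0270 to 0.88 for Nr4a1. In liver they were -0.29 to 0.46 for Dusp1, -0.35 to 0.48 for Egr1 and -0.50 to 1.06 for Fos. Without a change of sign they were 0.078 to 0.73 for Egr1 in brain and, in liver, 0.12 to 1.42 for Fosb, -0.72 to -0.16 for Junb, -0.39 to -0.060 for Ier2 and -2.10 to -0.51 for Nr4a1. In the interaction they were -0.47 to 0.82 for Arc, -4.13 to 0.27 for Camk4, -0.45 to 0.31 for Dusp1, -0.75 to 0.11 for Egr1, -0.0846 to 2.02 for Egr2, -0.70 to 0.87 for Fos and -0.23 to 1.14 for Fosb; those of Arc, Camk4 and Egr2 rest on few or no liver counts and are not estimates of a fold change. Junb between wild-type tissues ran from -0.32 to 0.23.

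DESeq2's Wald test called 10 of all genes in liver and 1 in the interaction. In liver the filter of 1 count called 4 of all genes, and the fit without wild-type replicate 2 called 1. A fit on 2 libraries in one arm assumes that they vary like the rest. With 3 libraries a group and SE of up to 0.92 in brain, the precision for these genes is limited there. The parts of counting error and of the spread between libraries in these SE were not separated. In liver the counts of Arc, Egr2 and Npas4 were too low for a test.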

Other observations

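Other regional markers also differed between the brain libraries. The striatal markers Drd1, Drd2, Adora2a and Ppp1r1b summed to 78.1, 65.7 and 124 CPM in wild-type replicates 1 to 3 and to 183, 152 and 52.5 CPM in knockout replicates 1 to 3. Adora2a, the adenosine receptor gene of indirect pathway neurons, was at 17.0 and 14.9 CPM in knockout replicates 1 and 2 and at 0.948 CPM in knockout replicate 3. The choroid plexus markers Ttr, Folr1, Kl and Clic6 summed to 183, 3.03 and 343 CPM in the wild type and to 483, 6.17 and 7.72 CPM in the knockout. Most of it in the 3 libraries with the highest sums was Ttr, the gene of the thyroxine carrier transthyretin, at 162 and 304 CPM in wild-type replicates 1 and 3 and at 437 CPM in knockout replicate 1. The library with the highest level of 8 immediate early genes, knockout replicate 3, thus had the lowest striatal sum, and the library with their lowest levels, knockout replicate 1, had the highest striatal and choroid plexus sums. Wild-type replicate 2 and knockout replicates 2 and 3 had the lowest choroid plexus sums. They also had the highest immediate early gene sums, 776, 894 and 1078 CPM against 622 CPM or less in the others. Over the 6 brain libraries, the summed markers ran from 409 to 676 CPM for astrocytes, 1280 to 4434 CPM for oligodendrocytes, 59.8 to 97.9 CPM for microglia, 82.6 to 92.2 CPM for endothelium, 20.6 to 49.7 CPM for hippocampal granule cells and 5.55 to 12.3 CPM for red cells. Wild-type and knockout replicate 1 had the highest astrocyte sums (676 and 579 CPM) and red cell sums (9.56 and 12.3 CPM) of their genotype. They also had the lowest microglial sums (59.8 and 66.2 CPM). For oligodendrocytes replicate 1 lay between the others in both genotypes. Neutrophil markers were at 4.63 CPM in knockout replicate 2 and at most 1.04 CPM in the other brain libraries. Over the 6 liver libraries, they ran from 127 to 164 CPM for endothelium, 377 to 474 CPM for stellate cells, 8.97 to 23.5 CPM for cholangiocytes and 107 to 163 CPM for red cells. The brain markers were not tested against the immediate early genes.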
